A study of Sus scrofa with 22 samples.

Results

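Amino acid and peptide transporters are the membrane proteins that bring the products of protein digestion into a cell, exchange them and pass them on. In the jejunal mucosa of 22 Ossabaw pigs, their genes were taken as the rows whose names begin with SLC1A, SLC3A, SLC6A, SLC7A, SLC15A, SLC36A, SLC38A or SLC43A and go on with a number. Of 64 such names among the 24358 genes, 45 had at least 10 unique exon reads in at least 7 libraries and are described here. Of the 19 others, 14 had fewer than 10 reads in every library, among them SLC36A2, SLC38A3, SLC6A2 and SLC7A13. The highest count among the remaining 5 was 17 reads, for SLC1A3. The name rule also takes in SLC7A6OS, which is not a transporter but the opposite-strand neighbour of SLC7A6; it is counted among the 45 and described only in the counts.

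The pigs were fed for 6 months and fell into 3 groups by their diet label, each library being a separate animal. The WD_S group (7 pigs) ate a Western pattern, labelled atherogenic, with butter fat, cholesterol and refined carbohydrate, and received atorvastatin, a drug that blocks cholesterol synthesis. The HHD_S group (8 pigs) ate a heart healthy pattern with plant oils, whole grains, fruit, vegetables and more fibre, received fish oil capsules of 1000 mg, and had the same drug. The HHD group (7 pigs) ate the heart healthy pattern with the fish oil capsules and no drug. Atorvastatin was given at 20 mg per day for 3 months and at 40 mg per day for the next 3. Both patterns gave 15% of energy as protein, 38% as fat and 47% as carbohydrate, so protein supply by energy was the same in the 3 groups. WD_S against HHD_S compares the dietary patterns in drug-treated pigs, with the fish oil as part of the pattern, and HHD_S against HHD compares the drug on 1 pattern. WD_S against HHD differs in both. The drug in WD_S follows the diet label, which names a statin. The series text ties the abbreviation in the WD_S sample titles to the Western pattern without drug. Were that text right, WD_S against HHD_S would differ in pattern and drug, and WD_S against HHD in pattern alone. By the labels, pigs on the Western pattern without the drug were not analysed here. The sex of each pig is not given in the sources used here.

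As background, dietary protein reaches the jejunal brush border as short peptides and free amino acids. Peptides enter with protons through SLC15A1, and free amino acids enter with sodium, with protons or by exchange through carriers of the other families. Inside the enterocyte peptides are cut to amino acids, which leave across the basolateral membrane through exchangers built of a heavy chain and a light chain, or through carriers that let them diffuse out. The mucosa also holds crypt, goblet, immune and stromal cells with carriers of their own.

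Library totals were 15.3 to 31.6 M counts (M stands for 1e+06), with a median of 21.2 M. The deposited files mark 13 libraries with the number 3 and 9 with the number 4. What the numbers stand for is not stated in the sources used here; they are called library pools, and the pools differed at 0 genes by edgeR (adjusted p under 0.05), with 602 genes at an unadjusted p under 0.05. The enterocyte marker SI (sucrase-isomaltase) was high in every library, between 3745 and 11210 CPM. CPM are counts per 1e+06 library counts, scaled by TMM, a factor that corrects for library composition. Libraries HHD_S 3 and HHD_S 8 stood apart with the lowest mean level of 12 enterocyte markers, 1.42 and 0.84 log2 units below the average library. Library WD_S 1 held 26.1 CPM of FABP6, an ileal bile acid binding protein, against 1.77 CPM or less in the other 21 libraries. The other ileal marker, SLC10A2, did not single out that library. It was at 7.97 CPM in WD_S 1, 7.76 CPM in HHD 1 and 7.61 CPM in HHD 4, and at 2.18 CPM or less elsewhere. Transporter genes together made up 0.493 to 0.747% of the counts in WD_S pigs, 0.405 to 0.680% in HHD_S pigs and 0.401 to 0.655% in HHD pigs. The median was 0.613% in WD_S, 0.538% in HHD_S and 0.440% in HHD, and the ranges overlapped.

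No transporter gene passed the test in any comparison. By edgeR's quasi-likelihood test with Benjamini-Hochberg adjustment over 13626 genes, 0 of 45 had an adjusted p under 0.05 in WD_S against HHD_S, where the background of all genes was 0%. In HHD_S against HHD the count was also 0 of 45, with a background of 0%. In WD_S against HHD, and in the test of the 3 labels together, it was 0 of 45 with a background of 0.00734%. At an unadjusted p under 0.05 there were 0 of 45 in WD_S against HHD_S (2.92% of all genes), 1 in HHD_S against HHD (1.81%), 2 in WD_S against HHD (3.41%) and 1 over the 3 labels (2.13%). DESeq2 and limma with quality weights also called 0 of 45 in each of these. At an unadjusted p under 0.05 limma had 5 of 45 (11.1%) in WD_S against HHD_S, where 6.80% of all genes had one. It had 8 of 45 (17.8%) in HHD_S against HHD, against 9.36% of all genes, and 7 of 45 (15.6%) in WD_S against HHD, against 9.83%. The 3 groups overlapped for every transporter gene, while 0.0147% of all genes had groups that did not overlap in WD_S against HHD_S, 0.0147% in HHD_S against HHD and 0.0661% in WD_S against HHD.

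Other than for SLC7A11 and SLC43A1, the 95% interval of the log2 fold change included 0 for every transporter gene in each comparison. In WD_S against HHD_S, 30 of 45 were positive, with a median of 0.12, against 47.1% positive and a median of -0.01 over all genes. The values ran from -0.44 to 0.33, and the median standard error was 0.206. The median fold change of the transporters depended on the libraries and the method. It was 0.06 without HHD_S 3 and HHD_S 8 (28 of 45 positive) and 0.04 by limma with quality weights (29 of 45 positive). Without HHD_S 2 it was 0.15 (33 of 45 positive). In HHD_S against HHD, 23 were positive and 22 negative, with 52.6% of all genes positive, a median of 0.02 and a range of -0.96 to 0.45. In WD_S against HHD, 23 were positive and 22 negative, with 49% of all genes positive, a median of 0.006 and a range of -1.40 to 0.56. The last 2 comparisons share the HHD pigs, and the first and last share the WD_S pigs.

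**Figure D1:**
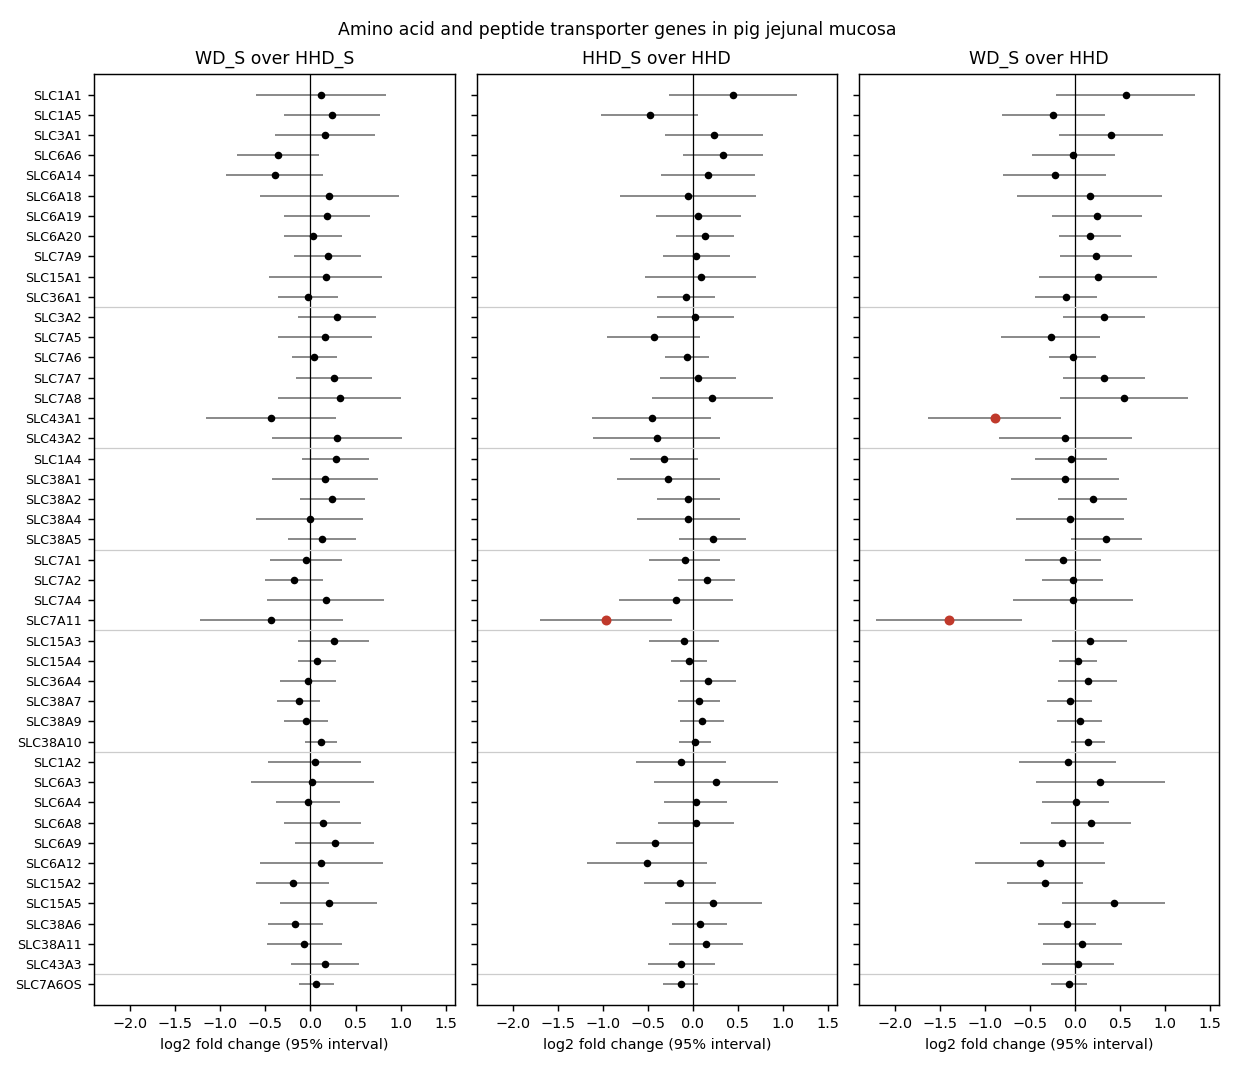
Log2 fold change (horizontal axis) of each of the 45 genes with its 95% interval, for WD_S over HHD_S, HHD_S over HHD and WD_S over HHD, with lines between the functional groups from brush border genes at the top to SLC7A6OS at the bottom. Red points have an unadjusted p under 0.05; they are SLC7A11 in the middle and right panels and SLC43A1 in the right panel, and every other interval includes 0.

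Of the 11 brush border genes, 0 passed the test in any comparison. Their log2 fold changes had medians of 0.16 in WD_S against HHD_S, 0.09 in HHD_S against HHD and 0.16 in WD_S against HHD. SLC15A1, the proton-coupled carrier of dipeptides and tripeptides (Sscrofa11.1, chromosome 11, 67652808 to 67690457), took 18.3% of all transporter reads, a share not corrected for gene length. Its lowest, median and highest levels were 786, 1068 and 1647 CPM in WD_S pigs, 436, 1035 and 1756 CPM in HHD_S pigs, and 437, 729 and 1485 CPM in HHD pigs. The groups overlapped over most of their range, and the lowest animals were HHD_S 3, HHD 7 and HHD_S 8, at 436, 437 and 454 CPM. The log2 fold change of SLC15A1 was 0.17 (SE 0.303, 95% interval -0.46 to 0.80) in WD_S against HHD_S. It was 0.09 (SE 0.296) in HHD_S against HHD and 0.26 (SE 0.315) in WD_S against HHD.

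SLC6A19, the sodium-coupled carrier of most neutral amino acids (chromosome 16, 79293940 to 79310922), had 535, 804 and 1032 CPM in WD_S pigs as lowest, median and highest, against 297, 681 and 1034 CPM in HHD_S pigs and 452, 528 and 957 CPM in HHD pigs. As with the peptide carrier, the HHD_S range reached lowest because of HHD_S 3, and the highest animals of WD_S and HHD_S were at nearly the same level. On the log2 scale SLC6A19 differed by 0.18 (SE 0.230) in WD_S against HHD_S, 0.06 (SE 0.227) in HHD_S against HHD and 0.24 (SE 0.240) in WD_S against HHD.

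SLC6A18 and SLC6A3 lie beside SLC6A19 on chromosome 16. The gap from SLC6A18, a relative of the neutral amino acid carrier best known from kidney, to SLC6A19 is 1476 bases. SLC6A18 had a median of 51.0 reads a library, and its levels ran from 1.46 to 4.38 CPM in WD_S pigs, from 0.499 to 4.32 CPM in HHD_S pigs and from 0.692 to 3.39 CPM in HHD pigs. Among the 45 genes it had the largest spread within groups, an SD of 0.771 on the log2 scale. The low animals were again HHD_S 3 and HHD 7.

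SLC1A1, the carrier of glutamate and aspartate, varied widely from pig to pig. Its lowest, median and highest levels were 231, 513 and 803 CPM in WD_S pigs, 186, 495 and 741 CPM in HHD_S pigs, and 81.8, 262 and 517 CPM in HHD pigs. HHD 5 was the lowest animal and WD_S 4 the highest, 9.81-fold apart, and both WD_S and HHD_S reached above the highest HHD pig. In log2 units the difference was 0.11 (SE 0.349) in WD_S against HHD_S, 0.44 (SE 0.344) in HHD_S against HHD and 0.56 (SE 0.372) in WD_S against HHD, within about 1.5 standard errors of 0 in each. Without HHD 5 the values were 0.24 in HHD_S against HHD and 0.30 in WD_S against HHD.

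The cystine and dibasic amino acid exchanger is made of the heavy chain SLC3A1 and the light chain SLC7A9, the pair altered in cystinuria. SLC3A1 had 34.7, 69.3 and 109 CPM in WD_S pigs as lowest, median and highest, against 31.3, 55.7 and 100.2 CPM in HHD_S pigs and 29.1, 54.0 and 71.4 CPM in HHD pigs. SLC7A9 had 187, 259 and 311 CPM in WD_S pigs, against 125, 226 and 292 CPM in HHD_S pigs and 153, 217 and 353 CPM in HHD pigs. The groups overlapped for both chains. The log2 fold changes of SLC3A1 were 0.16 (SE 0.269), 0.24 (SE 0.264) and 0.40 (SE 0.280) in WD_S against HHD_S, HHD_S against HHD and WD_S against HHD, and those of SLC7A9 were 0.19 (SE 0.182), 0.04 (SE 0.180) and 0.23 (SE 0.192).

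The other brush border carriers did not pass the test either. SLC6A20, a carrier of proline and related imino acids, averaged 144 ± 23.5 CPM in WD_S pigs, 139 ± 26.5 CPM in HHD_S pigs and 125 ± 34.9 CPM in HHD pigs (SD). SLC36A1, a proton-coupled carrier of small neutral amino acids, averaged 38.8 ± 3.66 CPM in WD_S pigs, 39.4 ± 11.8 CPM in HHD_S pigs and 41.5 ± 8.82 CPM in HHD pigs. SLC6A6, the taurine carrier, averaged 144 ± 33.5 CPM in WD_S pigs, 182 ± 50.2 CPM in HHD_S pigs and 144 ± 58.6 CPM in HHD pigs, and the log2 fold changes of -0.36 (SE 0.217) in WD_S against HHD_S and 0.34 (SE 0.215) in HHD_S against HHD did not pass the test. SLC6A14, a broad carrier of neutral and cationic amino acids, stayed near 1 CPM, at 0.994 ± 0.327 CPM in WD_S pigs, 1.36 ± 0.471 CPM in HHD_S pigs and 1.23 ± 0.420 CPM in HHD pigs. SLC1A5, a glutamine exchanger, averaged 31.8 ± 11.1 CPM in WD_S pigs, 28.1 ± 9.83 CPM in HHD_S pigs and 41.4 ± 17.0 CPM in HHD pigs, and its log2 fold change in HHD_S against HHD was -0.48 (SE 0.259, unadjusted p = 0.0767 by edgeR).

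**Figure D2:**
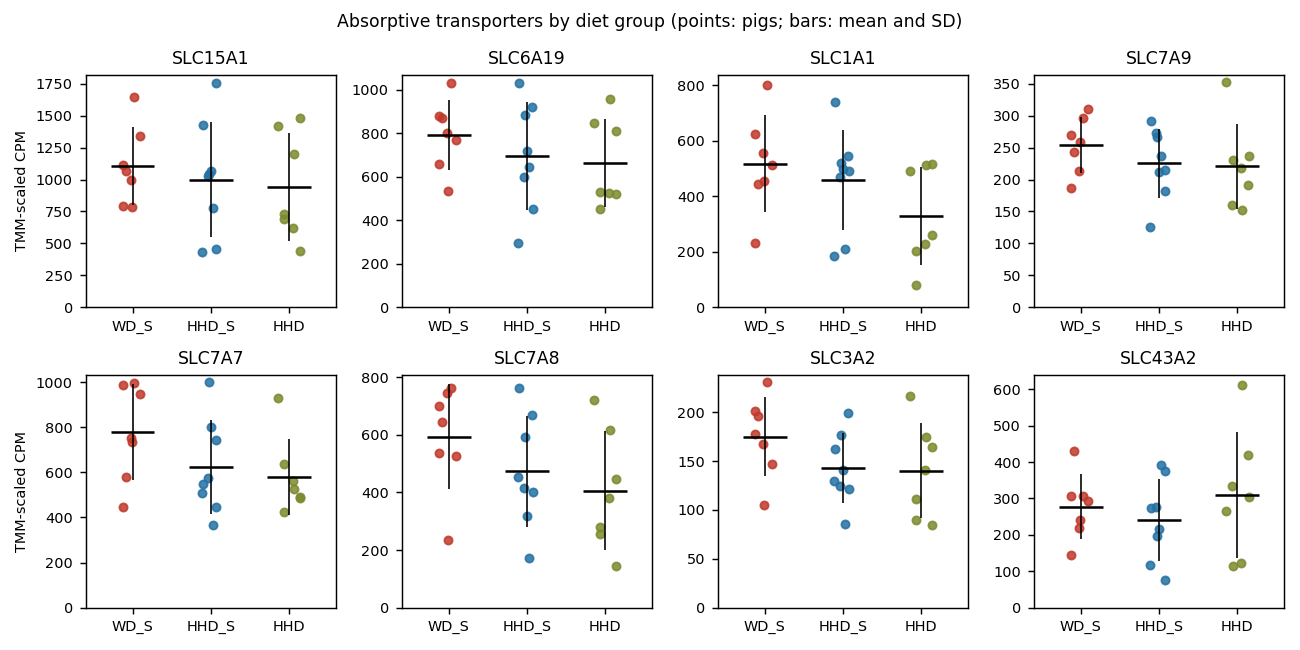
TMM-scaled CPM (vertical axes, starting at 0) of 8 absorptive transporter genes in each pig, by group on the horizontal axis in the order WD_S, HHD_S, HHD; points are pigs and bars are the mean with 1 SD. The groups overlap in every panel, and single pigs such as HHD_S 3 and HHD 7 are low in several of them.

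Across the basolateral membrane, 0 of 7 genes passed the test in any comparison. SLC3A2 is the heavy chain shared by the exchangers with the light chains SLC7A5, SLC7A6, SLC7A7, SLC7A8 and SLC7A11. It had 105, 178 and 231 CPM in WD_S pigs as lowest, median and highest, against 85.8, 135 and 200 CPM in HHD_S pigs and 85.1, 141 and 217 CPM in HHD pigs. On the log2 scale the difference was 0.30 (SE 0.208) in WD_S against HHD_S, 0.03 (SE 0.206) in HHD_S against HHD and 0.32 (SE 0.219) in WD_S against HHD. The lowest pigs in HHD_S and HHD, both numbered 7, were below all 7 WD_S pigs.

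SLC7A7, the light chain that exports dibasic amino acids and is altered in lysinuric protein intolerance, had 446, 754 and 994 CPM in WD_S pigs, against 366, 562 and 1001 CPM in HHD_S pigs and 423, 525 and 929 CPM in HHD pigs. In HHD the highest value came from 1 pig, HHD 6, and the groups overlapped. SLC7A8, the light chain that exchanges neutral amino acids (chromosome 7, 75854700 to 75921931), had 236, 646 and 763 CPM in WD_S pigs, against 172, 434 and 762 CPM in HHD_S pigs and 143, 382 and 723 CPM in HHD pigs. The median WD_S pig was higher than most HHD pigs, yet the log2 fold changes of 0.33 (SE 0.328) in WD_S against HHD_S, 0.22 (SE 0.323) in HHD_S against HHD and 0.54 (SE 0.342) in WD_S against HHD did not pass the test. SLC7A6, another light chain for dibasic amino acids, varied little, averaging 12.2 ± 1.79 CPM in WD_S pigs, 11.7 ± 1.76 CPM in HHD_S pigs and 12.3 ± 1.89 CPM in HHD pigs. SLC7A6 shares 1935 bases with SLC7A6OS, and the library kit does not mark strand, so reads from that stretch cannot be told apart.

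SLC7A5, a light chain for large neutral amino acids that is abundant in dividing cells, averaged 12.6 ± 4.78 CPM in WD_S pigs, 11.8 ± 4.25 CPM in HHD_S pigs and 16.7 ± 6.73 CPM in HHD pigs, with a log2 fold change of -0.44 (SE 0.248, unadjusted p = 0.0922 by edgeR) in HHD_S against HHD. Without HHD 7, the highest pig, that difference was -0.25. SLC43A2, which lets neutral amino acids diffuse out, had 146, 294 and 430 CPM in WD_S pigs, against 74.5, 244 and 392.3 CPM in HHD_S pigs and 115, 303 and 613 CPM in HHD pigs. HHD_S 8 was lowest and HHD 4 highest, 8.22-fold apart, and the SD within groups was 0.759 on the log2 scale, as large as that of SLC1A1.

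The 2 genes with an unadjusted p under 0.05 were both near the detection limit. SLC7A11, the cystine and glutamate exchanger that supplies cysteine for glutathione, had 0.324, 0.400 and 0.663 CPM in WD_S pigs as lowest, median and highest, against 0.355, 0.477 and 1.27 CPM in HHD_S pigs and 0.543, 0.682 and 3.01 CPM in HHD pigs. These levels rest on 7 to 10 reads a library in WD_S, 7 to 28 in HHD_S and 10 to 61 in HHD. HHD 7 held the 61 reads, HHD_S 5 the 28, and WD_S 7 was above 2 of the HHD pigs, so that the groups overlapped.

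The log2 fold change of SLC7A11 was -1.40 (SE 0.393, 95% interval -2.21 to -0.59, unadjusted p = 0.00171, adjusted p = 0.9997 by edgeR) in WD_S against HHD. In HHD_S against HHD it was -0.96 (SE 0.354, unadjusted p = 0.0123, adjusted p = 0.9993 by edgeR), and in WD_S against HHD_S it was -0.44 (SE 0.384). Without HHD 7 these were -0.94 in WD_S against HHD, -0.48 in HHD_S against HHD and -0.47 in WD_S against HHD_S. Within library pool 3 alone the value in WD_S against HHD was -1.62, and within pool 4 alone it was -0.76. In HHD_S against HHD it was -1.44 in pool 3 and 0.00 in pool 4, where HHD had 2 pigs.

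SLC43A1, a carrier of large neutral amino acids, had 0.133, 0.241 and 0.838 CPM in WD_S pigs, against 0.318, 0.496 and 0.692 CPM in HHD_S pigs and 0.445, 0.720 and 1.31 CPM in HHD pigs, on 2 to 32 reads a library. WD_S 1 and WD_S 6 were well above the other 5 WD_S pigs and within the range of HHD. The log2 fold change was -0.90 (SE 0.356, unadjusted p = 0.0197, adjusted p = 0.9997 by edgeR) in WD_S against HHD, -0.46 (SE 0.318) in HHD_S against HHD and -0.44 (SE 0.350) in WD_S against HHD_S. In WD_S against HHD it was -1.11 within pool 3 and -0.50 within pool 4. Without WD_S 6 the values were -1.24 in WD_S against HHD and -0.82 in WD_S against HHD_S. Without HHD 1 they were -0.71 in WD_S against HHD and -0.27 in HHD_S against HHD.

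**Figure D3:**
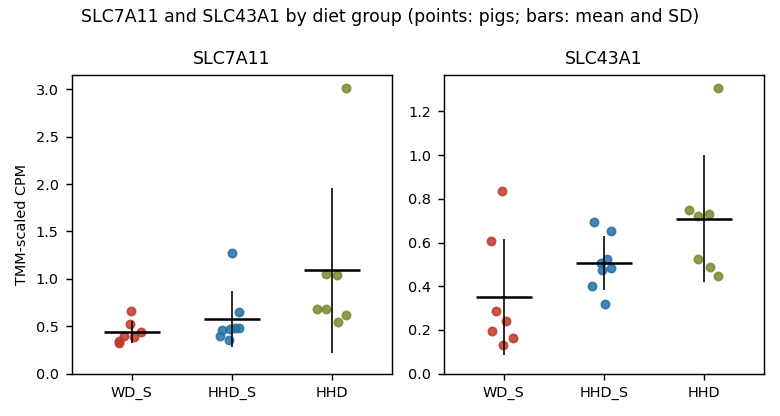
TMM-scaled CPM (vertical axes, starting at 0) of SLC7A11 and SLC43A1 in each pig, by group in the order WD_S, HHD_S, HHD; points are pigs and bars are the mean with 1 SD. HHD 7 stands alone at 3.01 CPM of SLC7A11, and HHD 1 at 1.31 CPM of SLC43A1.

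None of the 5 genes grouped under general uptake across the cell surface passed the test. SLC38A2, a sodium-coupled carrier that cells raise when amino acids are short, averaged 191 ± 65.4 CPM in WD_S pigs, 159 ± 31.0 CPM in HHD_S pigs and 164 ± 26.5 CPM in HHD pigs. WD_S 7 alone reached 321 CPM. SLC38A5, a glutamine carrier, averaged 19.2 ± 6.23 CPM in WD_S pigs, 18.5 ± 5.61 CPM in HHD_S pigs and 16.3 ± 3.57 CPM in HHD pigs, with a log2 fold change of 0.35 (SE 0.191, unadjusted p = 0.0838 by edgeR) in WD_S against HHD. The others were SLC1A4, SLC38A1 and SLC38A4, with log2 fold changes between -0.32 and 0.28 over the 3 comparisons.

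Among the cationic carriers, SLC7A1, the general arginine and lysine carrier, averaged 13.9 ± 3.58 CPM in WD_S pigs, 14.6 ± 2.52 CPM in HHD_S pigs and 15.6 ± 5.34 CPM in HHD pigs. SLC7A2 and SLC7A4, both named as cationic carriers, had log2 fold changes between -0.19 and 0.17. The 6 lysosomal and intracellular genes had log2 fold changes between -0.13 and 0.26 over the 3 comparisons. They include SLC38A9, the lysosomal arginine sensor for the growth kinase mTORC1, which averaged 22.2 ± 2.70 CPM in WD_S pigs, 23.0 ± 4.63 CPM in HHD_S pigs and 21.4 ± 2.36 CPM in HHD pigs. The SLC38A9 span overlaps PLPP1 by 101950 bases, so some of its reads could belong to that neighbour. SLC15A4, a lysosomal histidine and peptide carrier, averaged 31.7 ± 2.67 CPM in WD_S pigs, 30.1 ± 3.45 CPM in HHD_S pigs and 31.0 ± 4.97 CPM in HHD pigs. Its relative SLC15A3 averaged 11.2 ± 2.93 CPM in WD_S pigs, 9.46 ± 2.50 CPM in HHD_S pigs and 10.2 ± 2.19 CPM in HHD pigs.

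Carriers of neurotransmitters, osmolytes and other substrates made up 11 genes, of which 0 passed the test. SLC6A4, the serotonin carrier that enterocytes use to clear serotonin, averaged 202 ± 36.5 CPM in WD_S pigs, 205 ± 37.6 CPM in HHD_S pigs and 201 ± 60.6 CPM in HHD pigs. Its log2 fold changes were -0.02 (SE 0.172) in WD_S against HHD_S, 0.03 (SE 0.169) in HHD_S against HHD and 0.01 (SE 0.179) in WD_S against HHD, and the 95% interval of the first ran from -0.38 to 0.33. SLC6A8, the creatine carrier, took 8.87% of transporter reads and averaged 536 ± 91.8 CPM in WD_S pigs, 484 ± 148 CPM in HHD_S pigs and 470 ± 146 CPM in HHD pigs. SLC6A12, a carrier of betaine and GABA, had 1.25 to 4.77 CPM in WD_S pigs, 0.534 to 4.11 CPM in HHD_S pigs and 2.08 to 3.81 CPM in HHD pigs, with an SD within groups of 0.658 on the log2 scale. The other 8 were SLC1A2, SLC6A3, SLC6A9, SLC15A2, SLC15A5, SLC38A6, SLC38A11 and SLC43A3.

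By the median, transporter levels varied more between pigs of 1 group than those of all genes, in a comparison not matched for read number. The SD within groups on the log2 scale had a median of 0.413 over the 45 genes and ran from 0.146 for SLC38A10 to 0.771 for SLC6A18, against a median of 0.299 over all genes. After SLC6A18 came SLC1A1, SLC43A2, SLC7A8 at 0.696 and SLC6A12. Of these, SLC6A18 had 10 to 91 reads a library and SLC6A12 had 11 to 91, while SLC1A1, SLC43A2 and SLC7A8 had 1597 or more. The high and low pigs were partly the same for several genes. In HHD_S 3, SLC15A1, SLC1A1, SLC43A2, SLC6A18 and SLC6A19 were each more than 1 log2 unit below their mean over the 22 libraries. In HHD 7, SLC15A1, SLC38A4, SLC6A3, SLC6A18 and SLC7A8 were more than 1 unit below and SLC1A5, SLC38A1, SLC6A9, SLC7A5 and SLC7A11 more than 1 unit above.

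**Figure D4:**
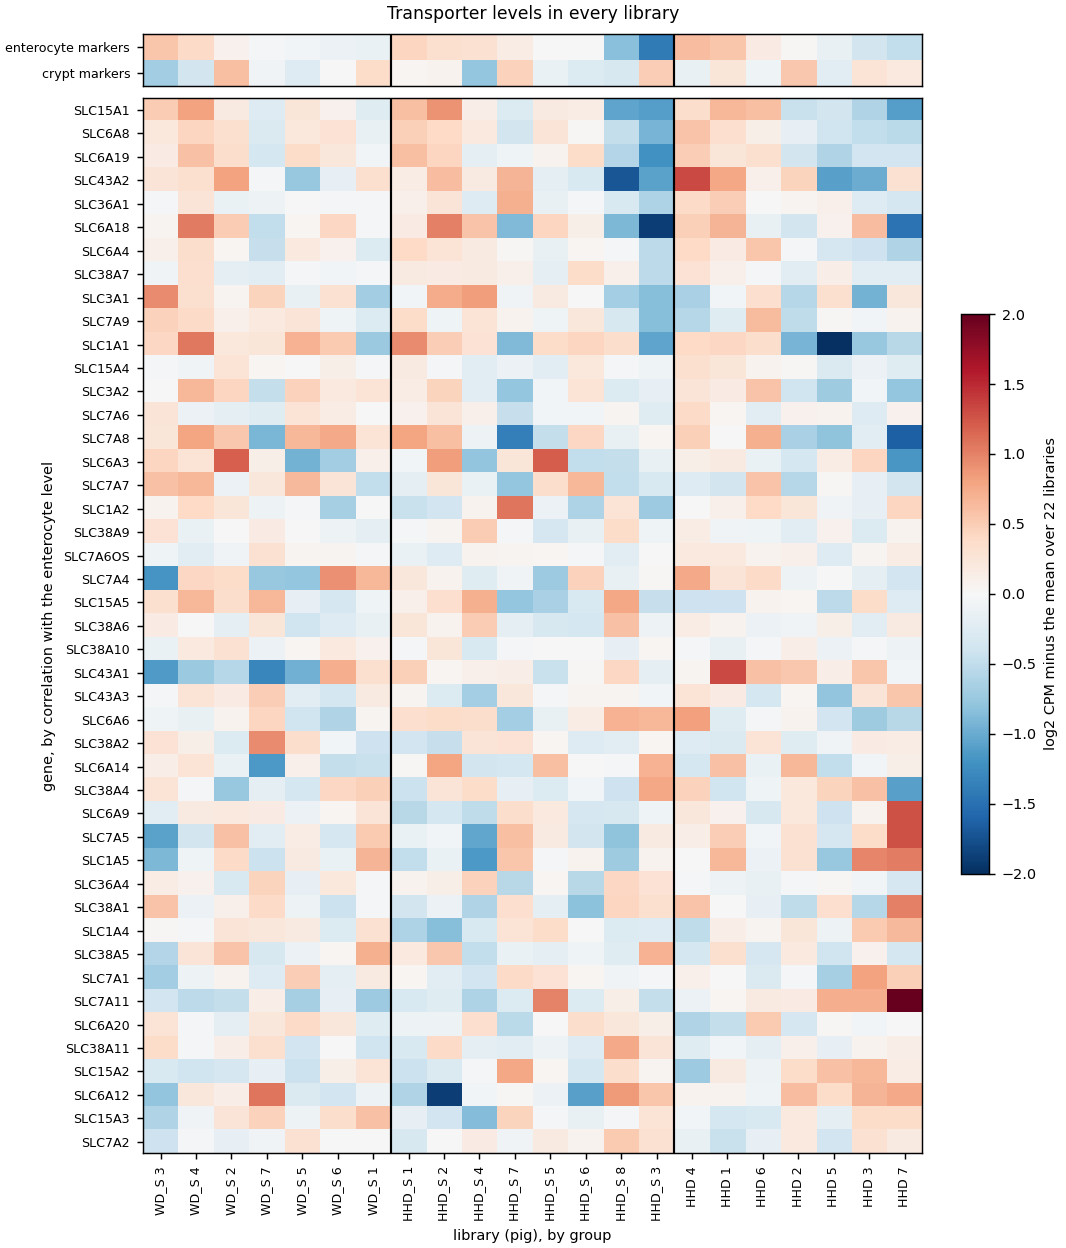
Log2 CPM minus the mean over the 22 libraries (colour, with the scale ending at -2 and 2) of the 45 genes (rows, ordered by their correlation with the enterocyte marker level) in each library (columns), with the enterocyte and crypt marker levels in the 2 rows at the top; black lines separate WD_S, HHD_S and HHD from left to right, and within a group libraries run from high to low enterocyte level. Genes in the top rows fade toward blue at the right end of the HHD_S and HHD blocks, where HHD_S 3, HHD_S 8 and HHD 7 lie.

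The levels of 9 transporters were correlated with the enterocyte marker level of the library, 4 of them among the 11 brush border genes. The measure was the mean centred log2 CPM of 12 enterocyte markers, none of them a transporter tested here, and each gene's Pearson r over 22 libraries was tested by 100000 permutations, with Benjamini-Hochberg adjustment over 13614 genes. The 9 that passed an adjusted p of 0.05 are 20.0% of the 45, against a background of 7.81%. On total counts in place of TMM, 10 of 45 (22.2%) passed, where the background was 16.9%. The 8 positive ones were SLC15A1, SLC6A8, SLC6A19, SLC43A2, SLC36A1, SLC6A18, SLC6A4 and SLC38A7. The negative one was SLC7A2, an arginine carrier (r = -0.684, rho = -0.660). By Spearman's rho 7 passed. In bulk tissue, fewer enterocytes and less RNA per enterocyte cannot be told apart. The 12 markers include genes of fat handling, such as APOA1, APOA4, APOB, APOC3 and MTTP. The part of these genes in the enterocyte marker level was not tested. Levels in 1 library also share its scaling factor, and the 22 points come from the 3 diet groups.

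SLC15A1 had the highest r of the 45, at 0.851 (permutation p = 1e-05, the smallest that 100000 permutations can give, adjusted p = 0.00158; rho = 0.829, permutation p = 1e-05, adjusted p = 0.00220). Its rank was 33 among all genes, and r was 0.809 without HHD_S 3 and HHD_S 8, 0.848 in pool 3 and 0.867 in pool 4. Within groups of pigs r was 0.799 in WD_S, 0.891 in HHD_S and 0.891 in HHD. The other 7 positive genes had lower values within WD_S, from 0.363 for SLC43A2 to 0.481 for SLC6A4, against 0.682 to 0.898 in HHD_S and 0.587 to 0.981 in HHD. SLC6A19 had r = 0.808 (permutation p = 2e-05, adjusted p = 0.00221; rho = 0.723, permutation p = 0.0003, adjusted p = 0.0141), with 0.627 without those 2 libraries, 0.869 in pool 3 and 0.731 in pool 4. For SLC6A18 the relation leaned on them, since r was 0.723 with and 0.474 without. Without HHD_S 3 and HHD_S 8, 3 of the 45 genes passed (6.67%), against 2.76% of all genes over the same 20 libraries. In pool 3 alone 5 passed (11.1%), against 2.05% of all genes, and in pool 4 alone 0 passed, as did 0% of all genes. The genes of the exchangers were not among the 9: SLC7A8 (adjusted p = 0.433), SLC7A9 (adjusted p = 0.141) and SLC7A5 (adjusted p = 0.696) did not pass this permutation test.

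Heavy and light chains of the exchangers were then set against each other, with SLC3A2, SLC3A1 and SLC7A5 chosen as reference genes after their values had been seen; 222 relations between transporters and these genes or marker levels were computed in all. With SLC3A2, 11 of the 44 other transporters passed (25.0%), against 16.4% of all genes. The highest was SLC7A8 (r = 0.927, permutation p = 1e-05, adjusted p = 0.00197; rho = 0.887, permutation p = 1e-05, adjusted p = 0.00172). SLC7A8 ranked 1 among the 13625 other genes tested. The value was 0.894 without HHD 7 and HHD_S 7, 0.936 in pool 3, 0.919 in pool 4, 0.906 in WD_S, 0.893 in HHD_S and 0.957 in HHD. Transporters that are no partners of SLC3A2 came next: SLC6A19 (r = 0.714), SLC15A1 (0.705), SLC6A8 (0.681), SLC1A1 (0.670), SLC6A4 (0.660), SLC6A18 (0.614) and SLC15A4 (0.571). SLC15A2, a peptide carrier best known from kidney, passed with r = -0.654. The other light chains of SLC3A2 had lower r than SLC7A8, and the difference was not tested. SLC7A7 had r = 0.555 (rho = 0.558, adjusted permutation p = 0.0485 for r and 0.0523 for rho), SLC7A6 had 0.230 (adjusted permutation p = 0.491), SLC7A5 had -0.145 (adjusted permutation p = 0.686) and SLC7A11 had -0.543 (adjusted permutation p = 0.0455 for r and 0.106 for rho).

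At the brush border, SLC3A1 and SLC7A9 had r = 0.685 (permutation p = 0.00033, adjusted p = 0.0188; rho = 0.639, permutation p = 0.0018, adjusted p = 0.0503), with 0.701 without HHD 3 and WD_S 3, 0.682 in pool 3 and 0.698 in pool 4. SLC7A9 ranked 167 among all genes. With SLC3A1, 2 of the 44 other transporters passed (4.55%), fewer than the 7.05% of all genes, and the other one was SLC7A1, with r = -0.603. The SLC3A1 span overlaps PREPL by 2147 bases and the SLC7A9 span overlaps TDRD12 by 3152 bases, so some of their reads could belong to those neighbours. Of the 45 genes, 14 have a span that overlaps a protein-coding gene, among them SLC6A20 with SACM1L by 8673 bases.

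With SLC7A5, 6 of the 44 other transporters passed (13.6%), a share near the 14.5% of all genes. SLC1A5 had r = 0.905 with it (permutation p = 1e-05, adjusted p = 0.00127; rho = 0.888, permutation p = 1e-05, adjusted p = 0.00138) and ranked 3 among all genes. It was 0.878 without HHD 7 and WD_S 3, 0.933 in pool 3 and 0.664 in pool 4. SLC6A9, the glycine carrier (r = 0.754), SLC7A1 (r = 0.701) and SLC15A3 (r = 0.636) also passed, while SLC15A3 had -0.077 in pool 4. SLC36A4 (r = -0.604) and SLC6A20 (r = -0.555) passed on the negative side.

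Against the level of 7 crypt and dividing cell markers such as LGR5, OLFM4 and TOP2A, 8 of 45 transporters passed (17.8%), against a background of 20.4%. SLC7A5 had r = 0.809 with it (permutation p = 1e-05, adjusted p = 0.000846; rho = 0.848, permutation p = 1e-05, adjusted p = 0.00162), with 0.692 without HHD_S 4 and WD_S 3, 0.835 in pool 3 and 0.339 in pool 4. SLC1A5 had r = 0.747 with that level (rho = 0.692, permutation p for r 9e-05, adjusted p = 0.00261), 0.789 in pool 3 and 0.054 in pool 4. SLC15A3 (r = 0.719) and SLC38A5 (r = 0.680) also passed on the positive side, with 0.738 and -0.305 in pool 4. On the negative side SLC7A7 (r = -0.590), SLC6A20 (r = -0.571), SLC38A9 (r = -0.569) and SLC3A1 (r = -0.558) passed, and in pool 4 they had -0.131, -0.100, -0.108 and 0.288.

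**Figure D5:**
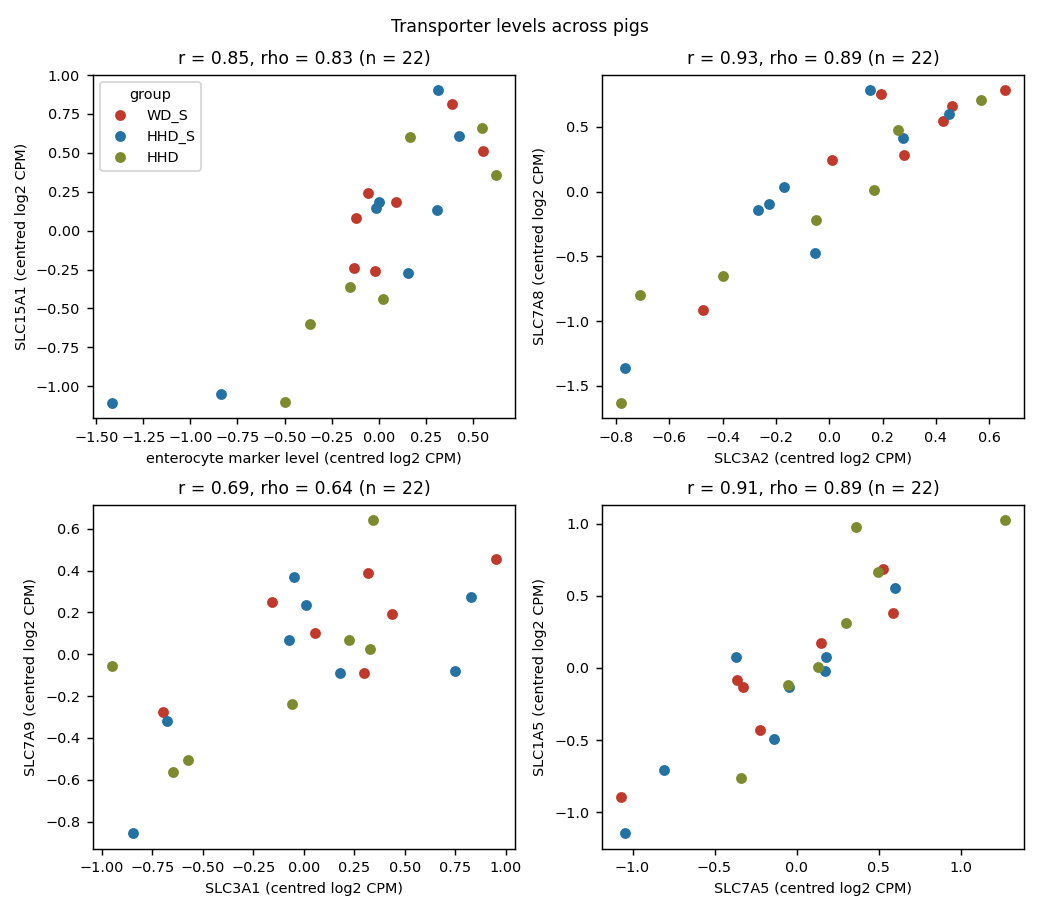
Centred log2 CPM of a transporter gene (vertical axes) against the enterocyte marker level, SLC3A2, SLC3A1 or SLC7A5 (horizontal axes, centred log2 CPM) in 22 libraries coloured by group, with r and rho above each panel. SLC7A8 follows SLC3A2 with r = 0.927 and pigs of the 3 groups are mixed along each cloud.

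The enterocyte level did not separate the groups. It ran from -0.133 to 0.552 in WD_S, from -1.416 to 0.429 in HHD_S and from -0.495 to 0.623 in HHD, with summed marker levels of 42570 to 81450 CPM in WD_S, 21560 to 72330 CPM in HHD_S and 33810 to 67080 CPM in HHD. The 7 crypt markers summed to 637 to 2054 CPM in WD_S, 469 to 1781 CPM in HHD_S and 859 to 1988 CPM in HHD. The medians of these sums were 917, 909 and 1672 CPM. Of the 7, 4 were positive in WD_S against HHD_S, 2 in HHD_S against HHD and 1 in WD_S against HHD. Over all genes 47.1%, 52.6% and 49% were positive. The 1 positive in WD_S against HHD had an unadjusted p under 0.05 by edgeR, and 0 passed in any comparison. No marker of either list was at 0 in every library. Stromal markers of fibroblasts and endothelium had log2 fold changes that were negative for 7 of 7 genes in HHD_S against HHD, with a median of -0.31 and 0 passing. In the same comparison 6 of 6 goblet cell markers were negative, with a median of -0.39 and 0 passing. AGR2, a goblet cell protein that helps fold mucin, had -0.52 (SE 0.195, unadjusted p = 0.0137 by edgeR) in HHD_S against HHD and -0.54 (SE 0.205, unadjusted p = 0.0156 by edgeR) in WD_S against HHD. The goblet list as a whole was mixed in WD_S against HHD, with 4 negative, 2 positive, a median of -0.07 and 0 passing. The 5 smooth muscle markers were also all negative in HHD_S against HHD, with a median of -0.23 and 0 passing. Over all genes 52.6% were positive in that comparison. In WD_S against HHD_S, 6 of 7 stromal, 4 of 6 goblet and 5 of 5 smooth muscle markers were positive, with medians of 0.25, 0.25 and 0.12. In WD_S against HHD, 5 of 7 stromal and 5 of 5 smooth muscle markers were negative, with medians of -0.05 and -0.11. The part of these markers in the transporter values was not tested.

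Genes that work beside the transporters were taken from lists chosen for their roles. Of 12 brush border peptidases, which release the amino acids and small peptides, 0 passed. Their log2 fold changes were positive for 9 of 12 in WD_S against HHD_S (median 0.16), 9 of 12 in HHD_S against HHD (median 0.09) and 12 of 12 in WD_S against HHD (median 0.23). Over all genes 47.1%, 52.6% and 49% were positive. The mean centred log2 level of the peptidases in a library ran from -0.291 to 0.504 in WD_S, -0.664 to 0.449 in HHD_S and -1.036 to 0.347 in HHD, so the groups overlapped. Of the peptidases, ENPEP had the smallest p, a peptidase that removes acidic residues, with a log2 fold change of 0.41 (SE 0.209, unadjusted p = 0.0600 by edgeR) in HHD_S against HHD. Among 8 genes for brush border partners and driving force, 0 passed, with SLC9A3, the sodium and proton exchanger that sustains the proton gradient, at 0.10 (SE 0.224), -0.16 (SE 0.221) and -0.06 (SE 0.232) in WD_S against HHD_S, HHD_S against HHD and WD_S against HHD.

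Of 25 tested genes of the amino acid response driven by the transcription factor ATF4, 0 passed. In HHD_S against HHD 19 were negative and 5 positive, with a median of -0.16, and CEBPG had 0. Over all genes 52.6% were positive there. In WD_S against HHD_S 18 were positive and 7 negative, with a median of 0.10, against 47.1% of all genes positive. In WD_S against HHD 11 were positive and 13 negative, with a median of -0.05, against 49% of all genes positive. ASNS, asparagine synthetase, had -0.49 (SE 0.204, unadjusted p = 0.0260 by edgeR) in HHD_S against HHD, and EIF4EBP1, a brake on translation, had 0.22 (SE 0.107, unadjusted p = 0.0484 by edgeR) in WD_S against HHD_S. Of 21 genes of lysosomal amino acid sensing, 0 passed, and FLCN, a regulator of that pathway, had 0.41 (SE 0.130, unadjusted p = 0.00492 by edgeR) in WD_S against HHD. Of 20 genes of amino acid metabolism in enterocytes, 0 passed, with medians of 0.14 in WD_S against HHD_S, -0.04 in HHD_S against HHD and 0.13 in WD_S against HHD.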

How the data were processed

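Jejunal mucosa RNA of 22 pigs was sequenced from TruSeq version 2 libraries as single reads of 150 bases, per the labels' protocols. Each deposited file lists raw counts, 1 per gene, of exon reads that map uniquely, per the file headers; reads that match several places are not in them, and no strand is marked. Mapping settings: not given in the sources used here. Groups follow the sample labels; the series text ties the abbreviation of the WD_S titles to the Western pattern without drug. Coordinates are from RefSeq by symbol (Sscrofa11.1).

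Counts were fitted with edgeR 4.0.16 (R 4.3.3): filterByExpr (minimum count 10), TMM, robust quasi-likelihood test over the 3 groups with a library number in the files (3 or 4, meaning not stated) as a term, called library pool, 13626 genes, 18 residual degrees of freedom, a biological coefficient of variation of 25.9%, Benjamini-Hochberg over all genes. Log2 CPM used a prior count of 2. Correlations were permuted with numpy 2.4.6. DESeq2 1.42.0, limma 3.58.1, other scalings and filters, each pool alone and leaving out each library were alternatives. The fits were tested on simulated data. No 2 libraries agreed within sampling noise (smallest reduced chi-square 25.2 over 231 pairs). Named genes were the brush border and basolateral genes, those with an unadjusted p under 0.05, the 5 with the largest spread and 7 others; levels per kilobase were not used here. Further genes (SLC6A8, SLC38A5, SLC7A2, SLC6A3, SLC6A9, SLC38A7, SLC38A10, SLC15A2, SLC36A4 and SLC9A3) were named after their values were seen. The members and lists were chosen with earlier results of these data known. Some genes are not reported here.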

Additional observations from a re-analysis of the deposited data

Results flagged for a closer look

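Within groups of 7 or 8 pigs, 9 of 78 sets of values of the named genes held 1 pig with a gap to the next that was large for the range (Dixon's test at 95%). Chance gives about 1 in 20 for normally distributed values. The values were CPM, and some named genes were chosen for a large spread or a small p. The share of 9 in 78 therefore cannot be read as an excess over chance. Library HHD 7 was far above the other HHD pigs for SLC7A11, at 3.01 CPM, and for SLC7A5, at 30.7 CPM. Library HHD 6 was far above the others for SLC7A7, at 929 CPM, and for SLC7A9, at 353 CPM. HHD 4 was high for the taurine carrier SLC6A6, at 266 CPM, and HHD 1 for SLC43A1, at 1.31 CPM. In HHD_S, HHD_S 5 was high for SLC7A11, at 1.27 CPM. In WD_S, WD_S 4 was high for SLC36A1, at 46.6 CPM, and WD_S 7 for SLC6A12, at 4.77 CPM. All 9 were high values, and 6 of them came from HHD pigs.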

How the results depend on the processing

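No paired analysis was possible because the labels give the groups no shared replicate numbers. The count of 0 transporters held in every alternative run, for each comparison. Over all genes, WD_S against HHD_S had 0 calls, with 2 without the pool term, 4 by DESeq2, 1 by limma and 1 without HHD_S 3 and HHD_S 8, and 0 to 2 when 1 library was left out. HHD_S against HHD had 0, with 1 by DESeq2. WD_S against HHD had 1, with 0 in pool 3, 0 in pool 4, 0 on total counts and 2 by DESeq2, and 0 to 1 when 1 library was left out; the 3 labels together had 1, with 0 in pool 3, 0 in pool 4, 0 on total counts and 3 by DESeq2, and 0 to 1 when 1 library was left out. The 9 correlations with the enterocyte level became 5 in pool 3, 0 in pool 4 and 3 without the 2 farthest libraries. The cause of these moves was not tested. The transporters positive in WD_S against HHD_S numbered 27 to 33 over the alternatives, and those in HHD_S against HHD 16 to 26. Of 78 fold changes of the named genes, 45 took the opposite sign in at least 1 of up to 34 alternatives, none while past the threshold. Read numbers limit SLC7A11, SLC43A1, SLC7A4, SLC38A1, SLC38A4 and SLC6A14, the 6 genes under 10 reads in some libraries.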
